A study of Mus musculus with 4 samples.

Results

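H3K9me3 was described over 10 genes of receptor-type protein tyrosine phosphatases, Ptprt, Ptprk, Ptprm, Ptpru, Ptprd, Ptprs, Ptprf, Ptprg, Ptprz1 and Ptprq, out of 21774 protein-coding genes, in mouse CD8+ T cells lacking the methyltransferase gene Suv39h1 and in wild-type ones. Ptprt was chosen by its covered length, the longest of any gene covered in the knockout list alone, and the other 9 were listed by name. That choice rested on these data, so the Ptprt values are a description. Just inside and just outside that choice, Ptprt had 260.5 kb in knockout islands and the next gene, Cdh13, had 226 kb. Cells of Suv39h1-KO mice (KO) and of wild-type mice (WT), all on a C57BL/6 background and, per the series title, littermates, were kept in culture for 3 days, stimulated through CD3 and CD28 by antibodies in medium with IL-2. Each genotype had 1 H3K9me3 library, analysed as a deposited list of islands, and 1 input library, not analysed here. How many animals stand behind a library is not stated in the labels. In a bulk library, fewer marked cells and less of the mark per cell cannot be told apart. The KO list held 25424 islands and the WT list 12371, and 96 KO and 24 WT islands touched a region of the 10 genes, meaning the gene with 2 kb on each side.

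H3K9me3 marks condensed, transcriptionally quiet chromatin, and SUV39H1 is one of the enzymes that write it. Receptor tyrosine phosphatases span the plasma membrane, with an adhesion-like part outside and phosphatase domains inside, and remove phosphate from tyrosines. The MAM-type group (Ptprt, Ptprk, Ptprm, Ptpru) binds like molecules on neighbouring cells, and the LAR group (Ptprd, Ptprs, Ptprf) organises synapses. Ptprg and Ptprz1 carry a carbonic-anhydrase-like domain and bind contactins, and Ptprq serves the hair bundles of the inner ear. The best known member of the wider family in T cells is CD45, encoded by Ptprc, which was outside the 10.

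RefSeq promoter sequences (GRCm38.p6) were found for 8 of the 10 genes, and not for Ptprd and Ptprq. No island touched them, and most were rich in CG. The 250 bases upstream of the start are shown 5′ to 3′ on the coding strand for the 4 MAM-type genes and for Ptprz1. Cover of the MAM-type genes took 3 forms (KO alone, longer in WT, or none). Among the 8 genes with a promoter sequence, the start of Ptprz1 lay nearest to an island. Capitals mark CG, the dinucleotide (its own reverse complement) in which DNA methylation mostly occurs.
Ptprt: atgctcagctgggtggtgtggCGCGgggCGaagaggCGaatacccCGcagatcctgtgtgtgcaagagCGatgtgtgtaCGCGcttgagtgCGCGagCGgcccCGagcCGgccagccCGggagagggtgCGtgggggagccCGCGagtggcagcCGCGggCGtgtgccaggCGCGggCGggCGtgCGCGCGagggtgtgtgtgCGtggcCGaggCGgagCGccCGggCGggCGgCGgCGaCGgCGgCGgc
Ptprm: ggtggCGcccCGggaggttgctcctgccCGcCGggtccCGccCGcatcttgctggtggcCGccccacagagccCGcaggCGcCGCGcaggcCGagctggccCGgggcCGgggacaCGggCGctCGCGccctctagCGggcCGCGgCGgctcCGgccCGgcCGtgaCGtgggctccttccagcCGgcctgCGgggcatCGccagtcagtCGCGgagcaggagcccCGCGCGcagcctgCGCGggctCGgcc
Ptprk: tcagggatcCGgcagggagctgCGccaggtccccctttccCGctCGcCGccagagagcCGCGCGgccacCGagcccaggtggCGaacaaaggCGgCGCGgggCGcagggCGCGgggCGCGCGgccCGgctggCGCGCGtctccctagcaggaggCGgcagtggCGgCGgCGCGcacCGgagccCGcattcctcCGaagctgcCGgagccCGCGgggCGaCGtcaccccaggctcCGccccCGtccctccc
Ptpru: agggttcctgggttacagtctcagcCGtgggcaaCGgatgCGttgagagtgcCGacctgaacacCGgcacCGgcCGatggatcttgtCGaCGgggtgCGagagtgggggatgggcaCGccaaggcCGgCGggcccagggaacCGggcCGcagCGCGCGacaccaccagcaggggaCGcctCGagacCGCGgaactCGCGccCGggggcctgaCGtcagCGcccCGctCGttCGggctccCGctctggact
Ptprz1: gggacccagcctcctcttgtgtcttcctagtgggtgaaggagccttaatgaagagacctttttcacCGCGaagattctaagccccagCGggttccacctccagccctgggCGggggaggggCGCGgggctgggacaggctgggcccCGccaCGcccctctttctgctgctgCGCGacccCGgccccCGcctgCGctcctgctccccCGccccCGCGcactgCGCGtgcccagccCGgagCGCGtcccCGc
The Ptprt stretch is chr2:162661148-162661397 (minus strand), that of Ptprm chr17:67354460-67354709 (minus), of Ptprk chr10:28074570-28074819 (plus), of Ptpru chr4:131838279-131838528 (minus) and of Ptprz1 chr6:22875252-22875501 (plus). They hold 39, 37, 38, 31 and 22 CG in the order printed. Over the 21263 promoters of protein-coding genes in the table the median was 10, with quartiles of 3 and 19, and 93.4% held at least 1. None of the 10 listed promoters of the 8 genes (300 bases each, with Ptprs and Ptprg listed with alternative starts) was touched by a KO or a WT island. Over all promoters, 3.36% were touched in KO and 3.06% in WT, so the absence here is close to the background. Ptprd and Ptprq, without a promoter sequence, are outside this count. KO islands lay over both ends of Ptprq (chr10:107507001-107522500 and chr10:107708001-107730500) and over the lower-coordinate end of Ptprd (chr4:75935501-75943000). The absence thus does not extend to all 10 genes. From the start site to the nearest KO island the distance was 76.6 kb for Ptprt, 205 kb for Ptprm, 34.3 kb for Ptprk and 5.50 kb for Ptprz1.

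Of the 10 genes, 7 had a KO island and 4 a WT island. Ptprt, Ptprm and Ptprg had islands in KO alone. Ptprk, Ptprd, Ptprz1 and Ptprq had them in both lists, and Ptpru, Ptprs and Ptprf in neither. No gene had islands in WT alone. Over all protein-coding genes 13.7% had a KO island and 14% a WT island, 6.16% had one in KO alone and 6.39% in WT alone, and 79.9% had neither. Length goes with these counts. The 7 genes with islands have regions of 182 to 2275 kb, while the 3 without have 68.1 to 87.2 kb. Among the 2549 genes of 100 kb or more, 43.2% had a KO island and 43.4% a WT island. Among the 227 genes of 500 kb or more, these shares were 85.5% and 74.4%, and 15.4% had an island in KO alone, against 3 of the 5 genes of that length here. Ptprt is among those 3 by choice.

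Summed over the 10 regions, islands covered 1077 kb in KO and 305 kb in WT, a ratio of 3.53, or 2.68 without Ptprt. The ratio depended on how the lists, which differ in length, were matched. It was 3.29 with the islands above their own list's median of reads per kb, 2.82 with the KO list reduced to the number of WT islands by reads, and 1.13 (345 kb in KO, 305 kb in WT) with the KO list reduced to that number by reads per kb. With all islands the same ratio was 1.80 over genes of 100 kb or more and 2.83 over those of 500 kb or more. KO cover was the longer in 6 of the 10 genes and WT cover in 1, Ptprk, while 3 had none. Over all protein-coding genes 9.71% had the longer cover in KO and 9.86% in WT, and among genes of 500 kb or more 73.6% in KO and 15.9% in WT. The median share of a region in islands was 15.9% in KO and 0% in WT over the 10 genes, 12.5% and 3.18% over genes of 500 kb or more, and 0% in both over all genes. With 1 library per genotype no spread between replicates is known, and no test was made. An island absent from a list means that none was called there.

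**Figure D1:**
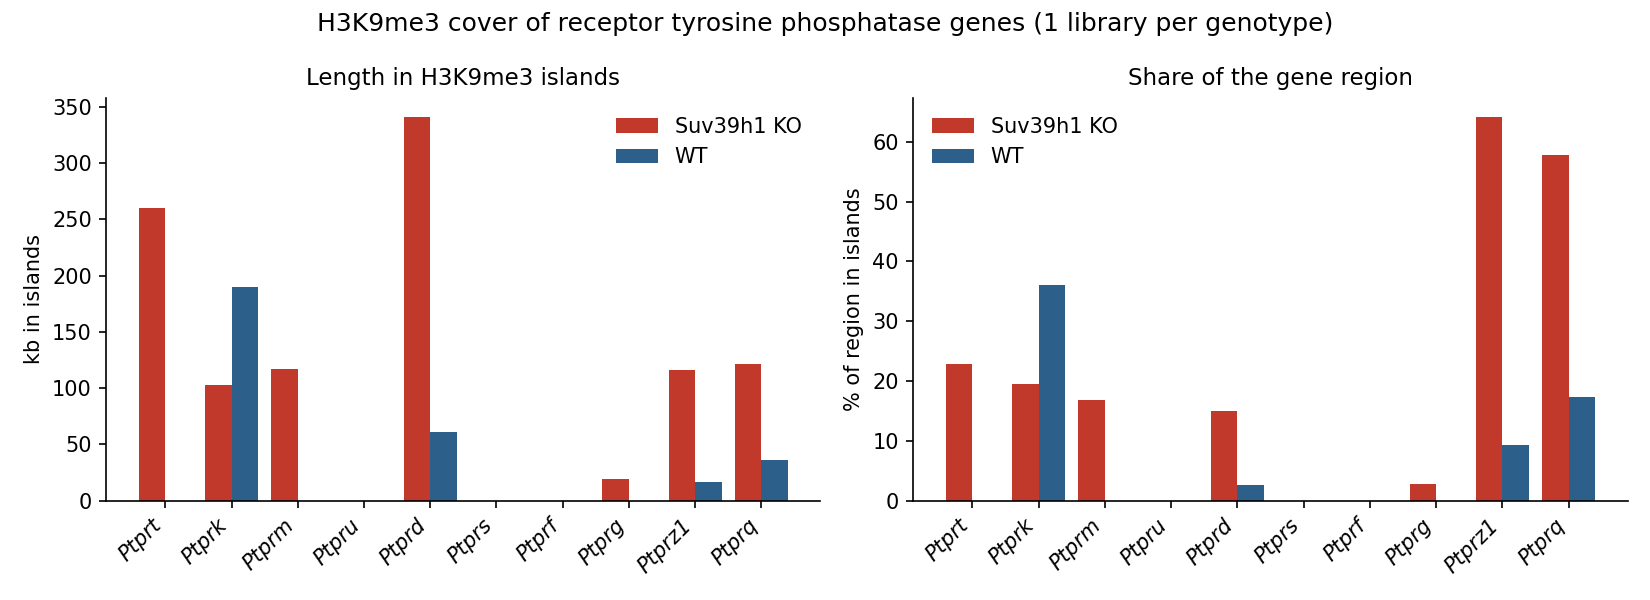
Length in H3K9me3 islands (left, kb) and share of the gene region in islands (right, %) for each of the 10 genes, in the KO library (red) and the WT library (blue), 1 library each. KO bars are the taller for every covered gene but Ptprk, which had 102.5 kb in KO and 190 kb in WT.

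Ptprt (chr2:161521988-162661147, minus strand, mm10) encodes a MAM-type phosphatase found mainly in the nervous system and known to act on STAT3. It carried 22 KO islands over 260.5 kb, 22.8% of its region, and no WT island. The KO islands were 6.50 to 22.5 kb long, with a median of 12.2 kb, and were spread along the gene with gaps of 2 to 128 kb (median 24 kb). Cutting the gene into 4 equal parts from its start, KO islands covered 27.2%, 24.1%, 22.5% and 17.7%. The longest lay at chr2:161991501-162014000 with 808 reads, and the island nearest to the start site at chr2:162578001-162584500 with 283 reads.

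Over the 1 Mb on each side of the gene mean KO cover was lower. In the 1 Mb before the start cover was 1.15% in KO and 0% in WT, and in the 1 Mb after the end 4.75% in KO and 2.85% in WT. It was uneven there, as the 100 kb from 1300 kb past the start had 40.1% in KO and 12.5% in WT. The gene lay in a stretch of 2.99 Mb between neighbouring WT islands (chr2:161275501-164261500), the 21st longest of 12349 such intervals on autosomes. KO islands covered 309.5 kb of that stretch, and 84.2% of this length fell in the Ptprt region, which makes up 38.3% of the stretch. Ptprt was chosen for long KO cover without a WT island, so these values follow in part from that choice. Only 2 protein-coding genes lay within 300 kb of Ptprt, Srsf6 and L3mbtl1, both before its start. Neither had an island in either list, as was the case for 79.9% of all protein-coding genes. The nearest KO islands outside Ptprt lay 84.4 kb before its start and 153 kb after its end. Of the long noncoding genes inside Ptprt, Ptprtos had none and Gm46774 had 2.81 kb (26.2% of its region) of a KO island and none in WT.

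The reads behind these islands were not dense. KO islands over Ptprt had 34.4 to 49.9 reads per kb (median 39.9), and 11 of 22 were above the median of the whole KO list, 40.1, whose 1st percentile was 34.1. These are read counts per kb of island without scaling to depth or input, and the total depth of the libraries is not known here. Among islands above their own list's median, Ptprt had 110 kb in KO and none in WT. The same 110 kb remained when the KO list was reduced to the number of WT islands by reads per kb, and 232 kb when it was reduced by reads.

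Ptprm (chr17:66666848-67354491, minus strand) encodes a homophilic adhesion phosphatase known from endothelial cells. It repeated the form seen at Ptprt at lower cover, with 13 KO islands over 117 kb (16.9% of its region) and no WT island. The part near the start was free of islands. The 4 equal parts from the start had 0%, 12.2%, 31.1% and 24.7% in KO islands. The 1 Mb before the start had 1.30% in KO and 0% in WT, and the 1 Mb after the end 4.15% in KO and 3.60% in WT. Like Ptprt it lay in a long stretch without WT islands, 2.81 Mb (chr17:66191001-68996000, the 23rd longest), of whose 220.5 kb in KO islands 53.1% fell in the Ptprm region, 24.7% of the stretch. KO islands over Ptprm had 36.3 to 46.3 reads per kb, and above the list median 47 kb remained in KO.

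Ptprk (chr10:28074820-28597397, plus strand) went the other way. It encodes a MAM-type phosphatase whose loss, known from a mutant rat strain, goes with a shortage of helper T cells. It carried 9 KO islands over 102.5 kb (19.5%) and 14 WT islands over 190 kb (36.1%). The KO minus WT difference of -87.5 kb was the largest excess in WT of all 21774 protein-coding genes, followed by Dok6 (-81 kb) and Dnah14 (-80.4 kb). By WT cover Ptprk ranked 7th, and by KO cover 173rd.

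At Ptprk part of the KO and WT cover lay at the same places, up to a point. Of the 9 KO islands 8 were overlapped by WT islands (88.9%, exact 95% interval 51.8 to 99.7), against 24.9% over the whole KO list. Of the 14 WT islands 8 were overlapped by KO islands (57.1%, interval 28.9 to 82.3), against 48.0% over the whole WT list. WT islands covered 36.1% of the region with a median gap of 13.5 kb, so an overlap of 1 bp is easily met here. The whole lists are thus not a like background. Intervals cover the counting of islands only, and islands of 1 gene are not independent. Shared length was 61.5 kb, 60% of the KO cover and 32.4% of the WT cover. The last KO island ended 301 kb from the start, at 57.5% of the gene. WT islands went on to 408 kb, with 67.5 kb beyond the last KO island, where KO had none. Up to that point the cover was 102.5 kb in KO and 122.5 kb in WT. The longest WT island, chr10:28365001-28413000, held 1964 reads over 48 kb (40.9 per kb), of which KO islands covered 21.9%.

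The 4 equal parts of Ptprk from its start had 21.0%, 35.6%, 21.8% and 0% in KO islands, and 33.3%, 47.5%, 58.2% and 6.51% in WT islands. Before the gene the order was turned, with 37.9% in KO and 12.3% in WT over the 1 Mb before the start. After the end it was mixed. The 1 Mb there had 18% in KO and 14.5% in WT, but from 600 to 1000 kb past the start the 100 kb bins had 0%, 3%, 10.5% and 15.8% in KO and 8.5%, 5.5%, 19% and 28.5% in WT. The higher KO mean came from the bin at 1400 kb, with 54.8% in KO and 4.68% in WT, and from part of the next. That next bin, with 56.2% in KO and 12% in WT, runs past the 1 Mb. Read densities were alike, with a median of 39.8 reads per kb over 9 KO islands and 40.6 over 14 WT islands. Above the list medians Ptprk had 45 kb in KO and 99.5 kb in WT, a difference that ranked 5th in WT excess, and it ranked 1st or 2nd in the other settings. With the KO list reduced by reads per kb it had 45 kb in KO and 190 kb in WT.

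**Figure D2:**
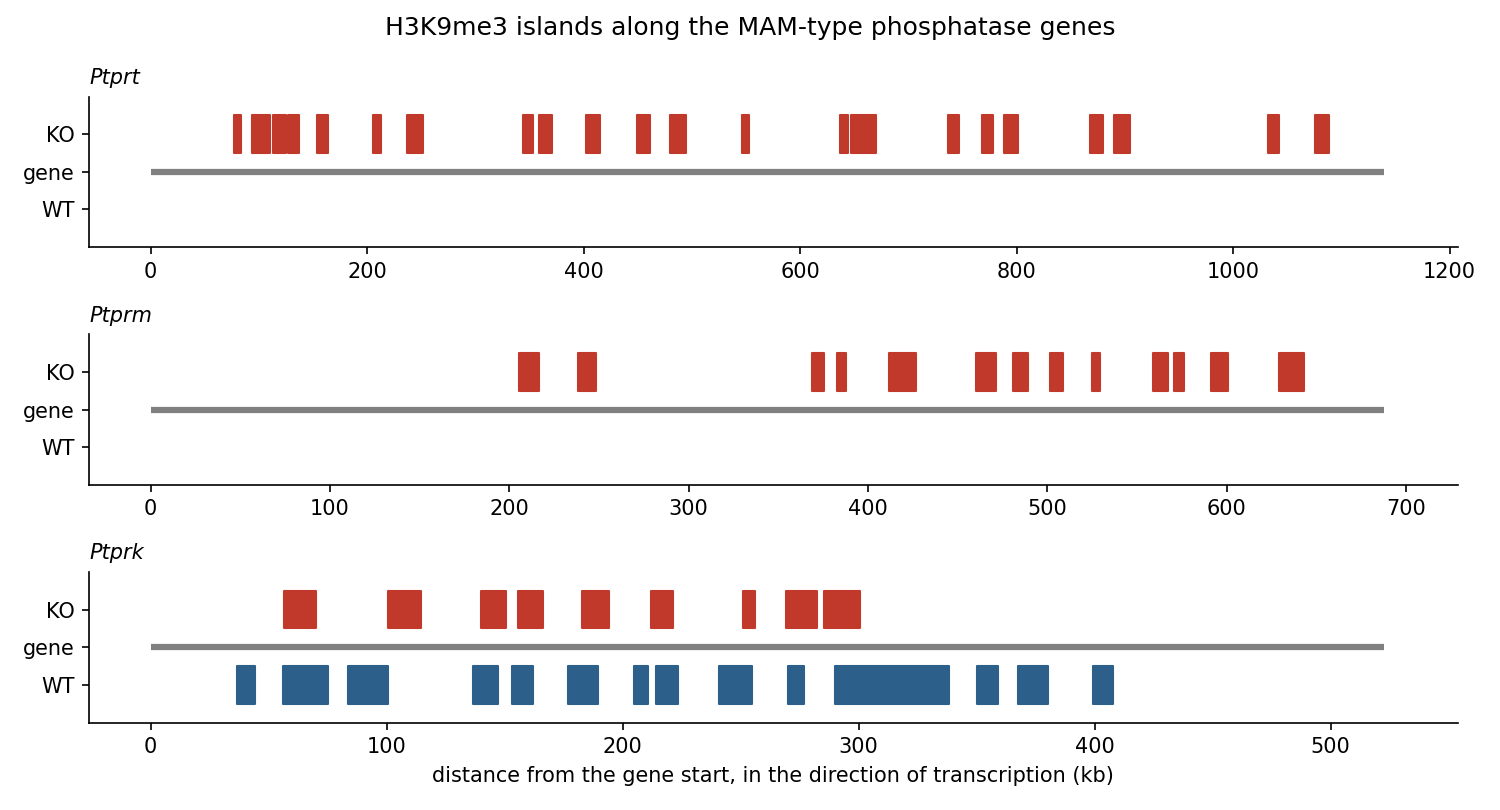
Islands of the KO list (red, above the gene line) and of the WT list (blue, below it) along Ptprt, Ptprm and Ptprk, by distance from the gene start in kb. Ptprt and Ptprm have 22 and 13 KO islands and no WT island, while at Ptprk the last of 9 KO islands ends before the last of 14 WT islands.

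**Figure D3:**
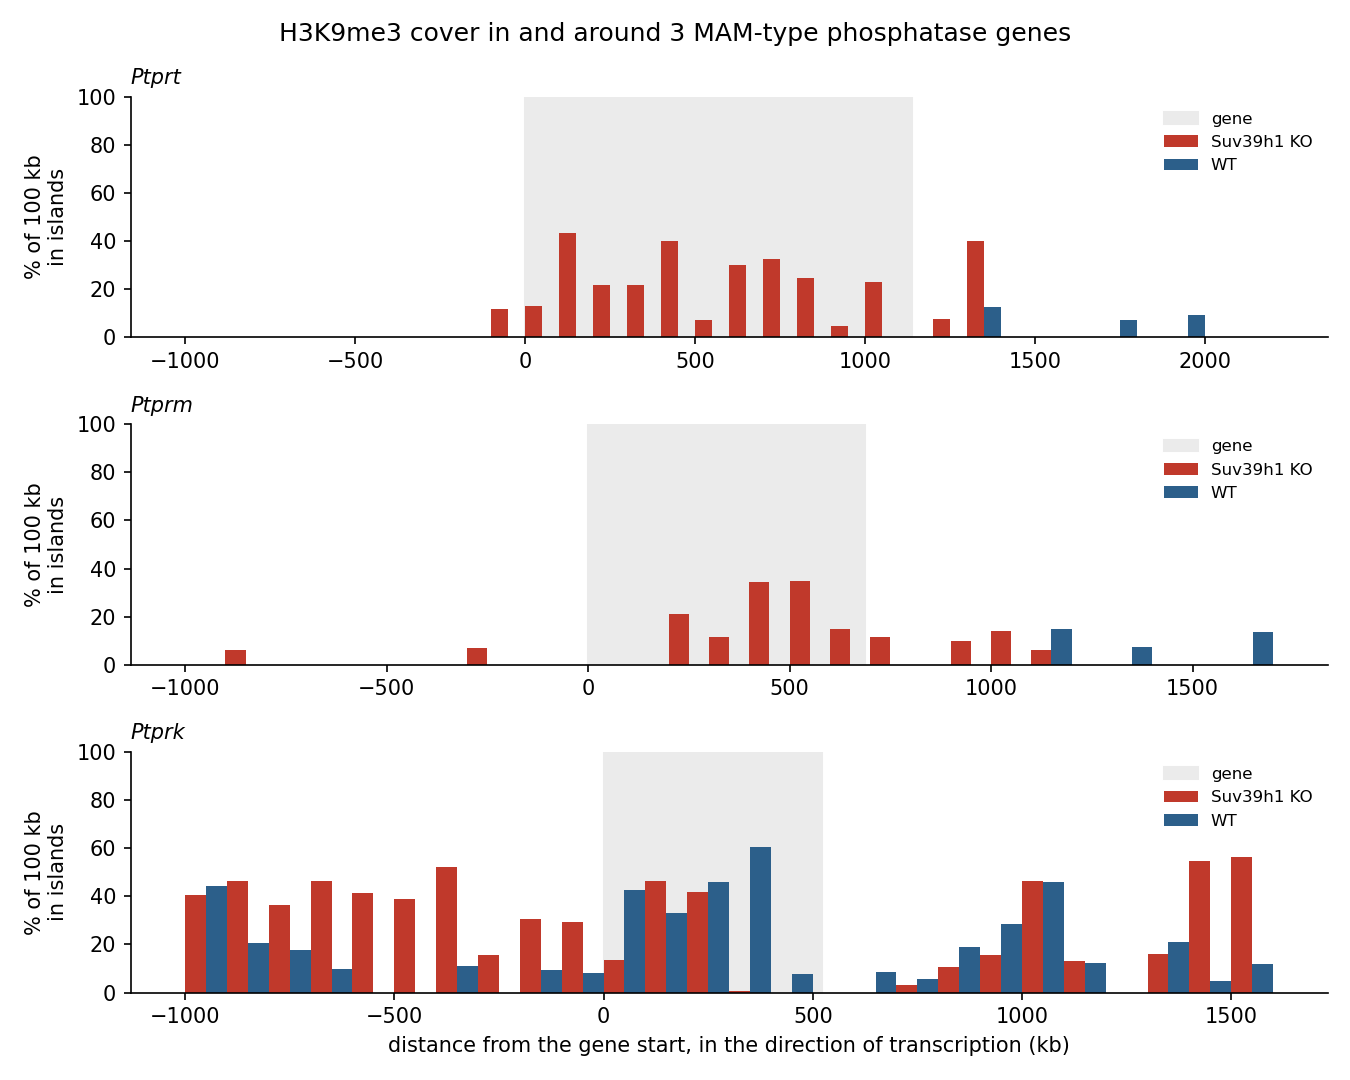
Share of each 100 kb in KO islands (red) and WT islands (blue) from 1 Mb before the start of Ptprt, Ptprm and Ptprk to 1 Mb past the end, with the gene shaded. KO cover within Ptprt and Ptprm is higher than the mean of the 1 Mb on either side. The bin at 1300 kb, outside Ptprt, still has 40.1% in KO. At Ptprk KO cover is the higher before the gene (37.9% in KO, 12.3% in WT) and WT cover within it.

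Ptpru (chr4:131768457-131838306), the remaining MAM-type gene and the shortest of the 4, had no island in either list. The nearest KO island lay 183 kb before its start and the nearest WT island 971 kb before it. The stretch between WT islands around it measured 2.65 Mb, much as at Ptprt and Ptprm, but held 13.5 kb in 2 KO islands. KO cover alone, longer WT cover and no cover were thus all found among the 4 MAM-type genes.

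In the LAR group 1 of 3 genes was covered. Ptprd (chr4:75941237-78211742), a presynaptic adhesion receptor and the longest of the 10 genes, had 36 KO islands over 341 kb (15.0%) and 5 WT islands over 61.5 kb (2.70%). By KO cover it ranked 12th of all protein-coding genes. Of its KO islands 4 were overlapped by WT islands (11.1%, interval 3.11 to 26.1), and of its WT islands 3 by KO islands, with 28 kb shared. WT islands here had 33.8 to 39.8 reads per kb (median 35.6), beside a 1st percentile of 34.3 in the WT list, and none was above the WT list median of 40.4. KO islands had a median of 38.4. Above the list medians Ptprd had 85 kb in KO and none in WT, and with the KO list reduced by reads per kb 72 kb in KO and 61.5 kb in WT.

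Ptprs (chr17:56412426-56476561), a receptor for chondroitin sulfate proteoglycans, and Ptprf (chr4:118208213-118291405), the founding LAR gene, had no island. Among the 1918 genes with regions of 60 to 100 kb, 72.2% had neither, so this absence is common for genes of their length. Ptprs lay 16.4 kb from a KO island and 15.4 kb from a WT island, and Ptprf 415 kb from the nearest KO island and 719 kb from the nearest WT island.

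Ptprz1 (chr6:22875315-23052916, plus strand) encodes a phosphatase of glia that binds pleiotrophin. It was covered over most of its length in KO, with 8 islands over 116 kb (64.1%), and over 17 kb in 1 island (9.36%) in WT. By share of the region Ptprz1 ranked 5th and Ptprq 10th in KO among the 2549 genes of 100 kb or more, and 465th and 207th in WT. The WT island of Ptprz1, chr6:23001001-23018000, had 657 reads, and 88.2% of it lay under a KO island. KO cover of the 4 equal parts from the start was 55.7%, 65.1%, 84.2% and 52.7%, and the first KO island began 5.50 kb from the start site. Around the gene the 1 Mb before had 14.2% in KO and 14.3% in WT, and the 1 Mb after 15.6% in KO and 1.45% in WT. Only 2 of the 8 KO islands were above the KO median of reads per kb, which left 26.5 kb in KO and none in WT. With the KO list reduced by reads per kb and the WT list whole, 26.5 kb in KO stood beside 17 kb in WT, a difference of 9.5 kb against 99.4 kb with all islands.

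Ptprg (chr14:11553440-12242041, plus strand), of the same group, had 2 KO islands over 19 kb (2.74%) and none in WT. They lay at chr14:11797001-11803000 with 240 reads and chr14:11969501-11982500 with 478 reads. Neither was above the KO list median, so Ptprg had no island in either list at that setting or with the KO list reduced by reads per kb. Its region is as long as that of Ptprm, 693 and 692 kb, with 19 kb and 117 kb in KO islands.

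Ptprq (chr10:107514363-107720098) had 6 KO islands over 121 kb (57.8%) and 4 WT islands over 36.5 kb (17.4%). Its longest KO island, chr10:107562501-107608000, held 1811 reads over 45.5 kb, was the longest KO island over the 10 genes, and was met by no WT island. KO and WT islands of Ptprq shared 18 kb. The KO islands at both ends ran past the gene. The 1 Mb on the low-coordinate side had 33.5% in KO and 6.35% in WT, and that on the other side 17.3% in KO and 9.20% in WT. The long noncoding gene Gm36177 overlaps Ptprq, so their cover cannot be told apart there. Above the list medians Ptprq had 52.2 kb in KO and 11.5 kb in WT. With the KO list reduced by reads per kb it had 52.2 kb in KO and 36.5 kb in WT, a difference of 15.7 kb against 84.7 kb with all islands.

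**Figure D4:**
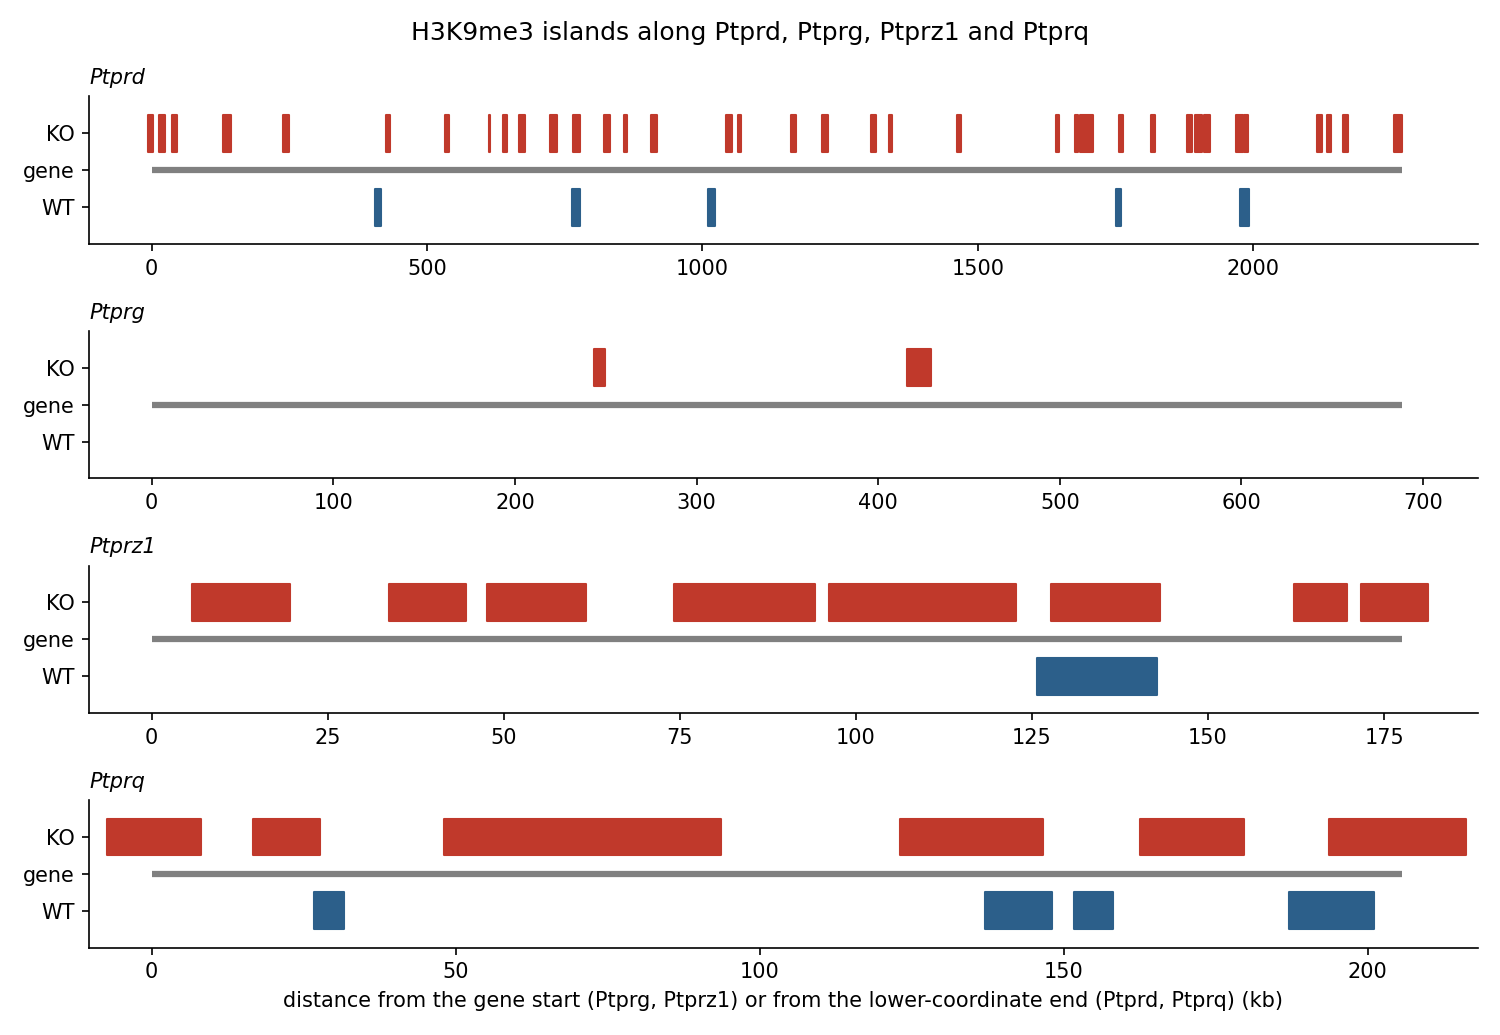
Islands of the KO list (red, above) and of the WT list (blue, below) along Ptprd, Ptprg, Ptprz1 and Ptprq in kb, from the gene start for Ptprg and Ptprz1 and from the lower-coordinate end for Ptprd and Ptprq. KO islands fill most of Ptprz1 and Ptprq (64.1% and 57.8%) and are scattered along Ptprd (15.0%).

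Over all 10 genes the median density of the islands lay slightly below that of their list. KO islands had 34.3 to 54 reads per kb (median 39.4) and 39 of 96 were above the KO list median. WT islands had 33.8 to 48.6 (median 39.8) and 9 of 24 were above the WT list median. The densest, with 54 reads per kb, was the shortest, a 3 kb KO island in Ptprd. Overlap with the other genotype was 16 of 96 KO islands (16.7%, interval 9.84 to 25.7) and 15 of 24 WT islands (62.5%, interval 40.6 to 81.2). Over the whole lists these shares were 24.9% and 48.0%. Without Ptprk the shares were 8 of 87 (9.20%) in KO and 7 of 10 (70%) in WT. The KO shares with and without Ptprk both include the 22 KO islands of Ptprt. Of these 0 were overlapped, because Ptprt was chosen without a WT island. That choice lowers both KO shares, so they and the interval are not comparable with the whole KO list.

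**Figure D5:**
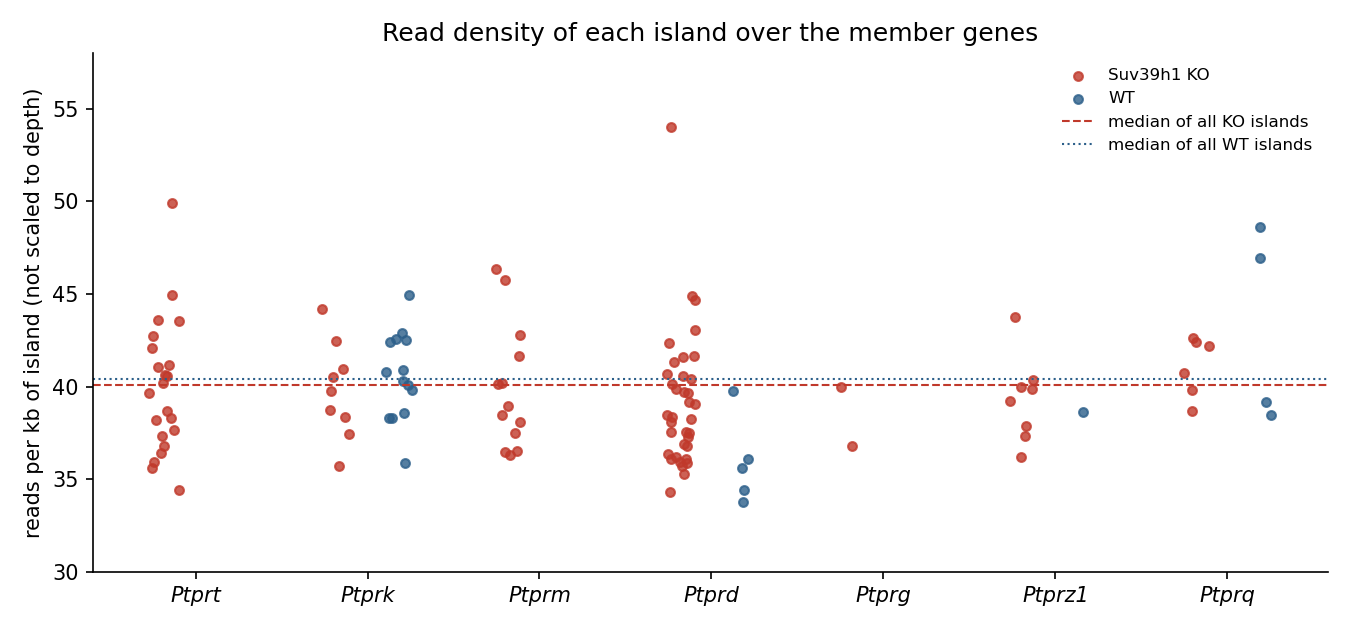
Reads per kb of every island over the 7 covered genes, KO (red) left of WT (blue), on an axis that starts at 30; dashed and dotted lines give the medians of the whole KO list (40.1) and WT list (40.4). Points of both genotypes scatter around the medians at each gene, apart from all 5 WT islands of Ptprd, both KO islands of Ptprg and the WT island of Ptprz1, which lie below theirs.

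Genes with no WT island and a KO share nearest to that of Ptprt (22.8% of the region) were sought among genes of 100 kb or more. Symbols that start with Gm and a digit or end in Rik were left out. The nearest of the rest were Klhl14 (23.0%), Smoc2 (23.0%), Pik3c2g (22.2%), Armh4 (22.2%) and Cyp2c39 (22.1%). They are shorter, with 2 to 8 KO islands each. Likeness here is the difference in KO share between a gene and Ptprt within the KO library and nothing more.

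The other receptor-type phosphatases have shorter genes, with a median region of 135 kb against 368 kb for the 10 genes above, and their cover was not tested against these. Of 11 listed, 10 were among the protein-coding genes (not Ptprv), and 5 had a KO island and 3 a WT island, with 109 kb in KO and 77.5 kb in WT in all. Ptprn2, of secretory granules, had 49.5 kb in KO and 43.5 kb in WT. Ptprr, which acts on MAP kinases, had 35.5 and 22 kb, and Ptpro, of kidney podocytes, 19 and 12 kb, in KO and WT in that order. The median share in islands was 1.48% in KO and 0% in WT. Ptprb, an endothelial phosphatase, had 3.50 kb and Ptprn 2 kb in KO alone. Ptprc had no island.

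Of 17 non-receptor phosphatase genes 2 had a KO island (11.8%) and 4 a WT island (23.5%), beside 13.7% and 14% of all protein-coding genes, over 15 kb in KO and 36 kb in WT. Ptpn2, which restrains cytokine and T cell receptor signals, had 7 kb and Ptpn13 8 kb in WT alone. Ptpn20 had 5.50 kb in KO and 11 kb in WT, and Ptpn4 9.50 kb in KO and 10 kb in WT. Ptpn6 and Ptpn22, both inhibitors of T cell receptor signalling, and Ptpn11 had none.

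Extracellular partners of these receptors ranged from short genes, such as that of the growth factor midkine (Mdk, a region of 6.49 kb), to very long ones, such as Il1rapl1 (1379 kb), both without an island. Il1rapl1 lies on the X chromosome, as do Gpc4, Slitrk2 and Slitrk4, which had no island either. How many islands were called on X is not given here, so this absence cannot be read as particular to Il1rapl1. Of 22 genes 11 had a KO island and 7 a WT island, 4 in KO alone and 0 in WT alone, with 940 kb in KO and 208 kb in WT. Their median region was 135 kb, against 21.2 kb over all protein-coding genes, and the median share in islands was 3.39% in KO and 0% in WT. KO cover was the longer in 11 of the 22 genes and WT cover in 0. Over all protein-coding genes the shares were 9.71% and 9.86%, and among those of 500 kb or more 73.6% and 15.9%. Gpc6, a glypican, had 245.5 kb in KO and 21.5 kb in WT. Among contactins, Cntn4 had 168 kb in KO and 54.5 kb in WT, and Cntn5 134.5 kb in KO and 66 kb in WT, while the contactin gene Cntn6 had 60.9 kb in KO and 24 kb in WT. Ptn, which encodes the Ptprz1 ligand pleiotrophin, had 26.8 kb in KO alone. Of 6 liprin genes, whose products bind LAR-type phosphatases inside the cell, 1 had a KO island and 2 a WT island. These are 16.7% and 33.3%, beside 13.7% and 14% of all protein-coding genes. Ppfia2 had 181 kb in KO and 42 kb in WT and Ppfibp2 24 kb in WT alone.

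None of the 10 CD8 T cell marker genes checked, among them Cd8a, Cd3e and Lck, had an island in either list. Their median region was 17.4 kb, and 79.9% of all protein-coding genes had no island either, so this absence is common. Of 10 markers of other cells Ncr1, of natural killer cells, had 10.2 kb in WT alone. A list of H3K9me3 islands does not show expression, so the labelled cell type was not tested by this. Suv39h1, on the X chromosome like Il1rapl1, had no island in either list, and its loss cannot be read from these files.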

How the data were processed

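The deposited data were 1 list of H3K9me3 islands for each genotype. Bowtie2, SICER 1.1 and mm10 are named in the submitters' processing notes. For window, gap, false discovery threshold, duplicate handling and use of the input the sources used here give nothing. The authors' files hold chromosome, start, end and a whole-number count, with no header. That count was read as the reads in the island and is not scaled to depth or input. Coordinates lie on a grid of 500 bp, counted from 0 with the last base as end, and were converted to positions from 1. The lists held 10020253 reads in KO islands and 5547695 in WT islands.

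Genes came from a RefSeq table of GRCm38.p6, the assembly mm10 names. In it 365 genes outside the chromosome sequences, by table order, were left out. A gene had an island when at least 1 bp of the gene with 2 kb on each side was covered. Strand came from the RefSeq promoter table. Shares of islands have exact (Clopper-Pearson) 95% intervals. The overlap code was tested on simulated islands. Genes outside the 10 were named by rule: all covered receptor-type phosphatases, up to 3 per genotype from each other list, and the 5 genes nearest to Ptprt in KO share. Those 5 were taken after leaving out symbols that start with Gm and a digit or end in Rik. The neighbours, the genes ranked by cover, and uncovered genes named as examples were chosen after their values were seen. The 10 genes and the lists were chosen with earlier results of these data known. Analysis used Python 3.11.15, numpy 2.4.6, pandas 2.3.3 and scipy 1.17.1.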

Additional observations from a re-analysis of the deposited data

How the results depend on the processing

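No paired analysis was possible because there is 1 H3K9me3 library for each of KO and WT. Other settings kept the denser islands (reads per kb over their list's median), cut the KO list to the WT number by reads, kept islands of at least 2 kb, merged islands less than 5 kb apart, used flanks of 0 or 10 kb, or asked for 5% of the region. Cutting the KO list by reads per kb was added after the data were seen. With the denser islands, 2 genes had a WT island, and islands covered 366 kb in KO and 111 kb in WT, with 110 kb over Ptprt in KO. With the KO list cut by reads per kb, KO islands covered 345 kb, again with 110 kb over Ptprt. Both settings only drop islands, so cover could only fall. Islands overlapped by the other genotype fell to 4 in KO and 4 in WT with the denser islands, and to 8 and 8 with the KO list cut by reads per kb, against 16 in KO and 15 in WT. The remaining counts of genes and summed lengths stayed within 1.5 times. Of 70 KO minus WT differences of single genes 15 moved by over 1.5 times or to 0. The 70 include Ptpru, Ptprs and Ptprf, which had no cover at any setting. For every covered gene the difference moved with the denser islands, and also with the KO list cut by reads per kb. For the 4 genes with cover in both lists, 0 of 28 changed sign, but in part of the 28 no change was possible. Cutting only the KO list could only widen the WT excess of Ptprk, and the minimum of 2 kb altered no value. With the denser islands Ptprd and Ptprz1 had no WT cover left. With at least 50% of an island covered, 11 KO and 11 WT islands were shared. Whole-library depth and the input are not known here, and the median densities of the islands over the 10 genes, 39.4 reads per kb in KO and 39.8 in WT, lay just below the medians of their lists, 40.1 and 40.4.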

Other observations

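Some genes next to the phosphatases had the longer cover in the same genotype as these, and others did not. Themis lies next to Ptprk, and T cells need it for development in the thymus. Its cover was 3 kb in 1 KO island and 14 kb in 2 WT islands, the longer in WT as at Ptprk. Beside Ptprq, Lin7a had 56.5 kb in KO and 10 kb in WT and the muscle regulators Myf5 and Myf6 had 8.02 and 2.15 kb in KO alone, whereas the inner-ear gene Otogl had 17.5 kb in KO and 41.5 kb in WT. Near Ptprz1, the secretion gene Cadps2 had 89.7 kb in KO and 4.73 kb in WT. Near Ptprg, Cadps had 25.5 kb in KO alone and 3830406C13Rik 13 kb in WT alone. Of the 26 protein-coding genes within 300 kb of Ptprs and the 13 around Ptprf, none had an island in either list. Over all protein-coding genes 79.9% had none. These neighbours were looked at after the values of the 10 genes were known.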
